A study of Homo sapiens with 10 samples.

Results

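The comparison set MESO, the cells labelled splanchnic mesoderm, against hESC, the undifferentiated cells they were made from. Both were WA09, an established human embryonic stem cell line, at passages 52 to 58. MESO cells were grown for 4 days on matrigel in DMEM/F-12 with 8 ng/mL of FGF, 10 ng/mL each of activin A and heregulin beta-1 and 200 ng/mL of IGF-I, to which BMP-4 (100 ng/mL) and Wnt-3a (25 ng/mL) were added. hESC were grown for the same 4 days at the same seeding density of 50000 cells per square centimetre with FGF, IGF-I, activin A and heregulin beta-1 at those concentrations and without Wnt-3a or BMP-4. Between MESO and hESC the added BMP-4 and Wnt-3a therefore came together, and their effects cannot be told apart. The members were the loci of the deposited MESO table on chromosomes 1 to 22 and X, with the row of highest mean level kept for each symbol, that reached 1 FPKM (fragments per kilobase of transcript, scaled for library size) in either cell type. They numbered 13476 of 22195 loci, from 24464 deposited rows, and 12984 of them carried a single gene symbol while 492 were loci merged under several symbols. TMEM82 lay just inside the minimum, at 0.384 FPKM in MESO and 1.00 FPKM in hESC, and ZCCHC18 just outside, at 0.390 FPKM in MESO.

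BMP-4 is a ligand of the TGF-beta superfamily that signals through SMAD1, SMAD5 and SMAD9, and Wnt-3a stabilises beta-catenin, the partner of the LEF and TCF factors. In the embryo the pair patterns the primitive streak, from which splanchnic mesoderm, the layer around gut and heart, arises. BMP signalling also drives pluripotent epiblast to amnion, the thin epithelium of the amniotic cavity, and can turn on genes of trophoblast, the outer epithelium of the placenta. Several transcription factors, among them HAND1, GATA4, TBX3 and ISL1, are used in both mesoderm and amnion and do not separate them.

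The whole series held 10 libraries of poly-A RNA, 2 for each of 5 WA09 cell types, and 4 of these libraries belonged to the comparison. The table holds 1 level per cell type, into which the authors had combined the replicates, so the replicate spread and the read depth are both unknown. Separate cultures are not named in the labels, so the authors' q-values may measure technical spread alone. Here, rose and fell mean a q-value under 0.05 in the authors' deposited table, and a change is the difference of log2(FPKM + 1), MESO minus hESC. Because 1 is added to both values, this understates changes of low genes.

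By the authors' deposited table, 1287 loci rose in MESO, 742 fell and 11447 did not pass, which is 9.55% and 5.51% of all loci. Among single-symbol genes, the background for every list below, 9.7% rose and 5.65% fell, and the median change of all loci was 0.07. Loci were banded by the higher of their MESO and hESC levels. The share that rose was 6.55% at 1 to 5 FPKM and 13.8% at 100 FPKM or more. In those bands 8.04% and 5.93% fell. Of the loci that rose, 402 were below 1 FPKM in hESC, and 338 of those that fell were below 1 FPKM in MESO. The smallest change among the called loci had a size of 0.70, and 193 loci differed by at least 2 without passing. Several genes near 0 in hESC are among these, such as LUM, which encodes the collagen-binding proteoglycan lumican (173 FPKM in MESO and 0.0721 FPKM in hESC, q = 0.544 in the authors' deposited table). Fewer expressing cells and less RNA per cell cannot be told apart in such bulk levels.

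**Figure D1:**
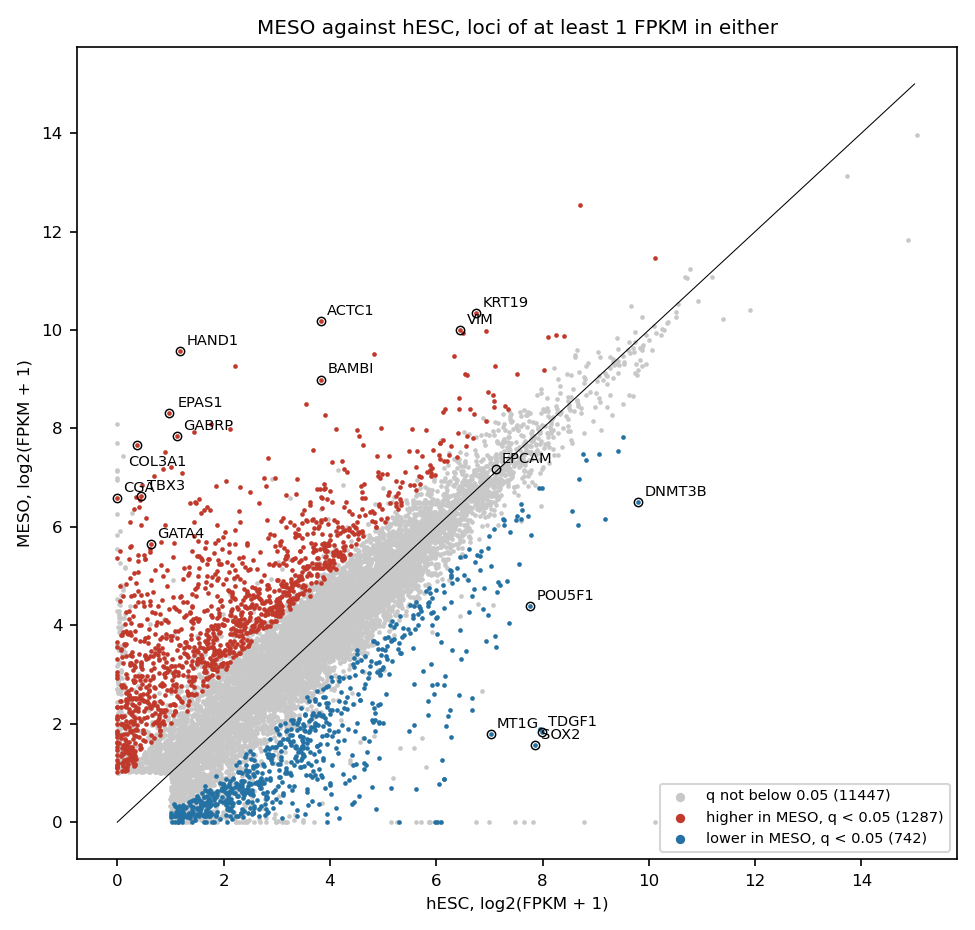
Level of each of 13476 loci in MESO (vertical axis) and in hESC (horizontal axis), both as log2(FPKM + 1), with the line of equal level. Red points are the 1287 loci that rose, blue points the 742 that fell and grey points those that did not pass; HAND1, COL3A1 and CGA lie at the upper left edge and SOX2 and TDGF1 at the lower right.

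The transcription factors named as markers of the cells were all far higher in MESO. HAND1, a basic helix-loop-helix factor, stood at 758 FPKM in MESO and 1.27 FPKM in hESC, a change of 8.38 and the greatest among the genes that rose. TBX3, a T-box factor (hg19 chromosome 12, 115108058 to 115121969), stood at 98.2 FPKM in MESO and 0.354 FPKM in hESC. GATA4, a zinc-finger factor of heart and endoderm, stood at 49.3 FPKM in MESO and 0.549 FPKM in hESC. The fourth marker, COL3A1 (hg19 chromosome 2, 189838875 to 189877472), encodes type III collagen and was listed at 202 FPKM in MESO and 0.289 FPKM in hESC. Its score in the authors' deposited table was only 2.75. The log2 ratio divided by that score was 3.43 for COL3A1, against a median of 0.60 over genes with a mean of at least 20 FPKM, and with a normal p-value taken from the score COL3A1 no longer passed. Its level is therefore uncertain, whereas the same quotient was 1.07 for HAND1, 0.85 for TBX3 and 0.87 for GATA4.

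The genes used in both mesoderm and amnion nearly all rose. Of 20 such genes 18 rose and none fell. The median change was 3.72, and 9 of the 20 reached the minimum in MESO alone. MSX1 and MSX2, homeobox factors induced by BMP, stood at 47.7 and 147 FPKM in MESO and at 0.194 and 1.02 FPKM in hESC. ISL1, a LIM homeobox factor of second heart field and amnion, stood at 32.2 FPKM in MESO and 0.246 FPKM in hESC. The secreted IGFBP3, which binds insulin-like growth factors, reached 620 FPKM in MESO, against 3.65 FPKM in hESC. EPAS1, a hypoxia-inducible factor subunit, was at 316 FPKM in MESO and 0.964 FPKM in hESC. BMP4 itself was at 110 FPKM in MESO and 14.1 FPKM in hESC, and its relative BMP2 at 14.3 FPKM in MESO and 1.31 FPKM in hESC. VIM, the intermediate filament of mesenchyme, was at 1026 FPKM in MESO and 86.7 FPKM in hESC. The pair that did not pass were TBX2 (4.03 FPKM in MESO and 0.00835 FPKM in hESC) and ID1, a BMP-induced inhibitor of basic helix-loop-helix factors, which was at 442 FPKM in MESO and already at 250 FPKM in hESC.

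Genes listed under splanchnic and lateral plate mesoderm, and not in the shared list, also rose. Whether they are absent from amnion was not tested. Of 34 found, 27 reached the minimum, 16 of these rose, none fell and 11 did not pass, with a median change of 2.53 over the 27 and 1.93 over all 34. At an unadjusted p-value under 0.05 in the authors' deposited table the counts were 19 higher and 0 lower. The cardiac factors TBX20 and NKX2-5 stood at 23.2 and 15.04 FPKM in MESO and at 0.197 and 0.653 FPKM in hESC. FOXF1, a forkhead factor that marks splanchnic mesoderm, was at 7.26 FPKM in MESO and listed at 0 in hESC. KDR, a VEGF receptor of early cardiovascular mesoderm, was at 55.9 FPKM in MESO and 6.75 FPKM in hESC. TWIST1 and NR2F2, factors of mesenchyme, were at 15.6 and 13.002 FPKM in MESO and at 0.192 and 0.0580 FPKM in hESC. The score of NR2F2 in the authors' deposited table was only 0.365, with a quotient of log2 ratio over score of 21.4, so its level and call are uncertain. The receptors PDGFRA and PDGFRB were at 9.01 and 17.5 FPKM in MESO and at 0.728 and 1.45 FPKM in hESC.

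The rest of the splanchnic list was low or uncertain. HAND2, HOPX and PRRX1 were at 20.6, 21.97 and 10.2 FPKM in MESO and under 0.03 FPKM in hESC, but did not pass. TBX5, TBX18, FOXC1, NR2F1, WNT2B, WT1 and NKX2-3 stayed below 1 FPKM in both cell types, with TBX5, a factor of the first heart field, at 0.214 FPKM in MESO; of these WT1 and NKX2-3 passed as higher, which makes 18 of the 34. Of the 27 genes, 19 reached the minimum in MESO alone, so they could only be higher there. Among the 8 with at least 1 FPKM in hESC, a requirement chosen after seeing the data, 3 rose: KDR, PDGFRB and GATA5.

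Contractile genes followed in part. Of 24 genes of heart and smooth muscle 19 reached the minimum, 7 rose, 1 fell and 11 did not pass, and 7 of the 19 reached the minimum in MESO alone. ACTC1, cardiac alpha-actin, reached 1159 FPKM in MESO, against 13.2 FPKM in hESC, and ACTA2, smooth muscle actin, 18.4 FPKM in MESO, against 1.58 FPKM in hESC. MYOCD, the myocardin coactivator of smooth muscle genes, was at 8.45 FPKM in MESO and 0.357 FPKM in hESC, and TPM1, tropomyosin, at 942 FPKM in MESO and 338 FPKM in hESC. MYL7, an atrial myosin light chain, rose to 12.2 FPKM in MESO, against 1.63 FPKM in hESC, and MYL4, another, was at 76.3 FPKM in MESO and 0.214 FPKM in hESC without passing. Other sarcomere genes were low or lower in MESO: TNNT2 was at 2.82 FPKM in MESO and 3.79 FPKM in hESC, TNNI3 fell to 2.56 FPKM in MESO, against 15.96 FPKM in hESC, and MYH6, MYH7, TTN and PLN were below 1 FPKM in both.

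Genes listed under amnion rose as well. Whether they are absent from trophoblast was not tested. Of 26 found 25 reached the minimum, 17 rose, none fell and 8 did not pass, with a median change of 3.14 over the 25 and 3.06 over all 26. At an unadjusted p-value under 0.05 in the authors' deposited table the counts were 19 higher and 0 lower. GABRP, a GABA receptor subunit found in amnion (hg19 chromosome 5, 170210722 to 170241473), was at 230 FPKM in MESO and 1.18 FPKM in hESC. VTCN1, an immune-checkpoint ligand of amniotic epithelium, was at 44.9 FPKM in MESO and 0.0414 FPKM in hESC. The factors of surface and extraembryonic ectoderm rose together: GATA3 was at 114 FPKM in MESO and 0.383 FPKM in hESC, GATA2 at 89.1 FPKM in MESO and 1.60 FPKM in hESC, and TFAP2A at 38.8 FPKM in MESO and 0.316 FPKM in hESC. The keratins of simple epithelium KRT7, KRT8, KRT18 and KRT19 were at 51.1, 987, 712 and 1298 FPKM in MESO and at 1.86, 89.4, 79.95 and 107 FPKM in hESC. HPGD, which degrades prostaglandins, was at 58.1 FPKM in MESO and 3.10 FPKM in hESC, and the tight junction gene CLDN4 at 75.7 FPKM in MESO and 10.1 FPKM in hESC.

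Members of the amnion list that did not pass were of several kinds. WNT6 was at 25.3 FPKM in MESO and 0.0751 FPKM in hESC (q = 0.179 in the authors' deposited table), and ITGB6, TP63 and TFAP2B stood between 1.67 and 3.63 FPKM in MESO, near 0 in hESC. EPCAM, an adhesion molecule of epithelium and of pluripotent cells, was at 143 FPKM in MESO and 138 FPKM in hESC. AQP3 was at 2.27 FPKM in MESO and 1.48 FPKM in hESC, CLDN10 at 4.51 FPKM in MESO and 8.69 FPKM in hESC, and MUC16 was near 0 in both. Of the 25 genes 8 reached the minimum in MESO alone, and among the 17 with at least 1 FPKM in hESC 13 rose. Summed over the list, amnion genes held 5063 FPKM in MESO and 579 FPKM in hESC, and the splanchnic list 331 FPKM in MESO and 27.7 FPKM in hESC. KRT8, KRT18 and KRT19, abundant in many simple epithelia, make up most of the amnion sum.

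The BMP feedback gene BAMBI stands in the amnion list and is shown with its promoter because it was also among the highest BMP targets, at 509 FPKM in MESO and 13.3 FPKM in hESC. The 250 bases before its start (RefSeq, GRCh38.p14, chr10:28677271-28677520, plus strand) held the letters GGCGCC, a GC-rich match described for SMAD proteins, 3 times. These are in capitals.
BAMBI: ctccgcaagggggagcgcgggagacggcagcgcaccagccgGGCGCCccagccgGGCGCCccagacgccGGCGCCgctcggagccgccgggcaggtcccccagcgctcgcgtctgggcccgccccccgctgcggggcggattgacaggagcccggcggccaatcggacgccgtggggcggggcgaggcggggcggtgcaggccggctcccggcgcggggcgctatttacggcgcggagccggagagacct
GGCGCC, which reads the same on both strands, was present in 16.4% of 35116 RefSeq promoters of that length, and its matches here do not overlap. The match describes the letters in this window and is not a measured binding site. The deposited tables use hg19, so none of their coordinates are mixed with these.

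Trophoblast genes rose beside the amnion genes, and none fell. Of 37 found, 24 reached the minimum, 13 rose and 11 did not pass, with a median change of 2.73 over the 24 and 1.34 over all 37. At an unadjusted p-value under 0.05, 13 were higher and 1 lower by the authors' deposited table, and 16 of the 24 reached the minimum in MESO alone. A further 3 genes below 1 FPKM in both cell types passed as higher, which makes 16 of the 37. CGA, the alpha subunit shared by chorionic gonadotropin and the pituitary glycoprotein hormones, was at 95.3 FPKM in MESO and CYP19A1, the aromatase that makes oestrogen, at 40.4 FPKM in MESO, and both were listed at 0 in hESC. PGF, placental growth factor, was at 113 FPKM in MESO and 2.63 FPKM in hESC. OVOL1, an epithelial zinc-finger factor, was at 19.9 FPKM in MESO and 2.39 FPKM in hESC, and the imprinted PEG10 at 137 FPKM in MESO and 28.8 FPKM in hESC.

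GCM1 and ERVFRD-1, a factor and a retroviral envelope protein of cell fusion in trophoblast, were at 16.7 and 14.1 FPKM in MESO and near 0 in hESC without passing, as were VGLL1 at 17.9 FPKM and CRH at 17.2 FPKM in MESO. Other defining genes stayed low. CGB5, a beta subunit of chorionic gonadotropin with near-identical copies and hence uncertain, was at 1.29 FPKM in MESO, ELF5 at 0.0760 FPKM in MESO, CSH1 was listed at 0 in MESO, and PSG1, PSG3, PSG5 and PSG9 were below 1 FPKM in both cell types. HLA-G was at 5.94 FPKM in MESO and 6.83 FPKM in hESC, and TEAD4 at 29.1 FPKM in MESO and 41.0 FPKM in hESC, neither passing. The share of the MESO cells that carried trophoblast, amnion or mesoderm transcripts was not tested.

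CGA is shown because it was listed at 0 in hESC and its promoter carries a repeated match. The 250 bases before its start (RefSeq, GRCh38.p14, chr6:87095107-87095356, minus strand) held the cyclic AMP response element TGACGTCA 2 times, in capitals.
CGA: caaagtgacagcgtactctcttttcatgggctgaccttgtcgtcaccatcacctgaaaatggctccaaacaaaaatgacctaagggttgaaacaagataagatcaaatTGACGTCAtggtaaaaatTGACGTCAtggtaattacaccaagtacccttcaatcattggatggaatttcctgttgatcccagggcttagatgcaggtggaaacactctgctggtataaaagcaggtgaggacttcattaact
TGACGTCA, its own reverse complement, was present in 1.65% of the 35116 promoters. The authors' data do not bear on the factor that reads it.

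**Figure D2:**
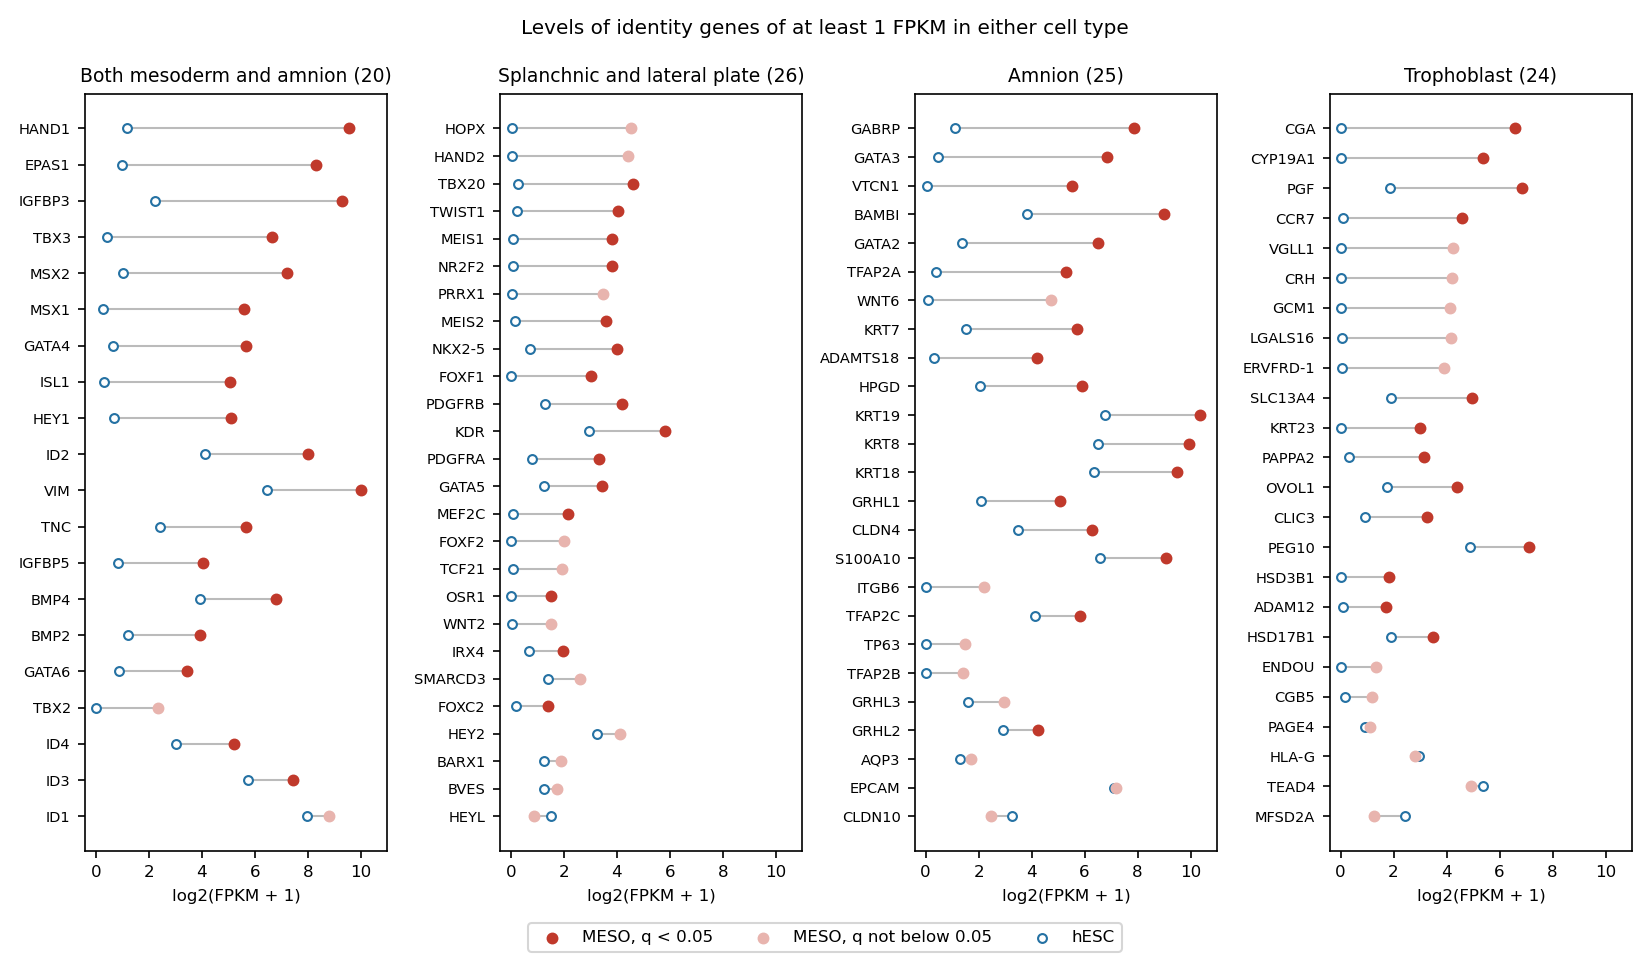
Levels in MESO (filled red where the gene rose, pale where it did not pass) and hESC (open blue) on a log2(FPKM + 1) axis for genes of at least 1 FPKM in 4 lists that share no gene. Over the whole lists 18 of 20, 16 of 27, 17 of 25 and 13 of 24 rose, from left to right, and 1 splanchnic gene that rose is not drawn.

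Genes of mesenchyme and matrix were next. Of 26 mesenchymal genes at the minimum 23 rose and 1 fell, with a median change of 3.83, and 9 of the 26 reached the minimum in MESO alone, so that they could only be higher. SNAI2, a repressor of epithelial genes, was at 80.9 FPKM in MESO and 0.243 FPKM in hESC, and ZEB2, another, at 15.3 FPKM in MESO and 0.109 FPKM in hESC. FN1, fibronectin, reached 731 FPKM in MESO, against 27.3 FPKM in hESC, and HGF, a growth factor secreted by mesenchyme, 96.6 FPKM in MESO, against 0.271 FPKM in hESC. POSTN, periostin, was at 41.9 FPKM in MESO and 0.316 FPKM in hESC. CDH2, N-cadherin, and CDH11 rose to 70.8 and 77.2 FPKM in MESO, against 14.0 and 1.97 FPKM in hESC. CDH1, E-cadherin, did not pass, at 137 FPKM in MESO and 79.2 FPKM in hESC. HAPLN1, a protein that links hyaluronan to proteoglycans, was at 241 FPKM in MESO and 1.73 FPKM in hESC, and PRTG, the membrane protein protogenin of early embryos, at 130 FPKM in MESO and 0.612 FPKM in hESC. BST2, tetherin, was the member that fell, to 6.04 FPKM in MESO, against 47.0 FPKM in hESC.

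Of 31 collagen genes 19 rose and 3 fell, 7 of them reaching the minimum in MESO alone. COL6A3 was at 91.9 FPKM in MESO and 0.354 FPKM in hESC, and COL5A1 at 93.2 FPKM in MESO and 1.90 FPKM in hESC. Basement membrane genes, 13 of 20 of which rose and none fell, were led by NID2 (67.4 FPKM in MESO and 3.95 FPKM in hESC) and by the type IV collagens COL4A1 (256 FPKM in MESO and 30.1 FPKM in hESC) and COL4A2 (202 FPKM in MESO and 23.7 FPKM in hESC). At an unadjusted p-value under 0.05, 1 of the 20 was lower by the authors' deposited table. LAMA5 and AGRN, also of the basement membrane, did not pass, at 30.6 and 48.0 FPKM in MESO and at 35.8 and 67.1 FPKM in hESC. Of 19 genes that crosslink or mature collagen 11 rose and none fell, also at an unadjusted p-value in the authors' deposited table, with TGM2, a transglutaminase, at 44.2 FPKM in MESO and 0.524 FPKM in hESC and LOXL2, a lysyl oxidase, at 105 FPKM in MESO and 14.9 FPKM in hESC. Integrins ITGAV, ITGA5 and ITGB1, which bind fibronectin, were at 160, 39.2 and 426 FPKM in MESO and at 15.5, 4.87 and 125 FPKM in hESC. ITGA6, a laminin receptor subunit, fell to 14.2 FPKM in MESO, against 43.3 FPKM in hESC.

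Actin and adhesion genes rose in 11 of 27 cases and fell in none, also at an unadjusted p-value in the authors' deposited table, among them the protease CAPN2 (113 FPKM in MESO and 6.00 FPKM in hESC) and the myosin MYH9 (189 FPKM in MESO and 60.1 FPKM in hESC). ACTB and ACTG1, the cytoplasmic actins, were at 2403 and 2169 FPKM in MESO and at 1758 and 1636 FPKM in hESC and did not pass. ANXA1 and S100A11, calcium-binding proteins of the cell cortex, stood at 310 and 1012 FPKM in MESO and at 13.9 and 121 FPKM in hESC. Of 20 S100 and annexin genes, S100PBP among them by its symbol alone, 8 rose and none fell, also at an unadjusted p-value in the authors' deposited table.

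Targets of YAP and TEAD, the transcription pair that responds to adhesion and tension, rose in 9 of 18 cases and fell in 1. ANKRD1, a stretch-responsive target, was at 71.3 FPKM in MESO and 0.453 FPKM in hESC. YAP1 and TEAD1 themselves were at 138 and 69.9 FPKM in MESO and at 41.5 and 13.3 FPKM in hESC. CTGF was the member that fell, at 13.1 FPKM in MESO and 40.8 FPKM in hESC, while CYR61, a target of the same kind, was at 72.1 FPKM in MESO and 57.8 FPKM in hESC and did not pass. ANKRD1 is shown as the target with the greatest change. Its 250 promoter bases (RefSeq, GRCh38.p14, chr10:90921088-90921337, minus strand) held the TEAD motif GGAATG 2 times on the strand printed, in capitals.
ANKRD1: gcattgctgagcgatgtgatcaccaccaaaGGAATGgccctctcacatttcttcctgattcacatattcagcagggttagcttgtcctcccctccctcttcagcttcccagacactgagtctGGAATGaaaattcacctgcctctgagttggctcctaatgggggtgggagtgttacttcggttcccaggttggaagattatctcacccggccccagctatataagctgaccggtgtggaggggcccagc
GGAATG or its reverse complement, searched on both strands, was present in 11.9% of the 35116 promoters.

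Early streak genes were mostly low. Of 16 at the minimum 4 rose and 1 fell, 7 reaching the minimum in MESO alone. APLNR, the apelin receptor of mesoderm, was at 143 FPKM in MESO and 0.823 FPKM in hESC, EVX1, a posterior streak homeobox factor, at 9.25 FPKM in MESO and 0.0631 FPKM in hESC, and SNAI1, which drives epithelial-mesenchymal transition, at 25.7 FPKM in MESO and 5.33 FPKM in hESC. EOMES and MIXL1, factors of the streak, did not pass, at 1.07 and 2.24 FPKM in MESO and at 0.943 and 2.51 FPKM in hESC. CDX1 and CDX2, caudal factors, were at 7.57 and 5.18 FPKM in MESO and near 0 in hESC (q = 0.0930 and 0.543 in the authors' deposited table).

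HOX genes of several clusters reached the minimum. All 13 of the 30 found that reached the minimum did so in MESO alone, so they could only be higher, and 2 rose, HOXB7 (11.7 FPKM in MESO) and HOXD11 (2.09 FPKM in MESO), both listed at 0 in hESC. HOXB6, HOXB8 and HOXB9 were at 34.7, 16.8 and 14.8 FPKM in MESO and HOXA13, a gene of the far end of its cluster, at 13.6 FPKM in MESO, without passing and with at most 0.111 FPKM in hESC. Summed over the 13 genes the level was 122 FPKM in MESO and 1.02 FPKM in hESC.

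Genes of other tissues gave mixed counts. Of 13 endothelial and blood genes at the minimum 6 rose and 1 fell. TEK, SOX7 and LMO2 were at 37.2, 19.2 and 8.39 FPKM in MESO and at 6.84, 1.15 and 0.594 FPKM in hESC. RUNX1 and FLI1 were at 8.41 and 4.90 FPKM in MESO and at 0.0716 and 0.161 FPKM in hESC. PECAM1, CDH5, VWF and TAL1 were below 1 FPKM in both, and GATA1, an erythroid factor, was listed at 0 in MESO. Of the 13 genes 6 reached the minimum in MESO alone, and the summed level of all 13 was 115 FPKM in MESO and 62.8 FPKM in hESC. Of 11 definitive endoderm genes 3 rose and 2 fell, and 3 reached the minimum in MESO alone. The apolipoprotein gene APOA1 and the chemokine receptor gene CXCR4 rose to 11.6 and 10.8 FPKM in MESO, against 0.494 and 1.73 FPKM in hESC, and PRDM1, a transcriptional repressor, to 1.54 FPKM in MESO, against 0.215 FPKM in hESC. The endoderm factors FOXA2 and SOX17 did not pass, at 0.190 and 2.08 FPKM in MESO and at 0.625 and 1.26 FPKM in hESC. Of 15 neural and neural crest genes 4 rose, among them the crest and cartilage factor SOX9 (31.9 FPKM in MESO and 2.58 FPKM in hESC), and 6 fell, while PAX6 and SOX1 were below 1 FPKM in both. Of 10 epidermal genes 5 rose and 1 fell: the desmosome genes DSP and JUP were at 138 and 216 FPKM in MESO and at 19.1 and 69.2 FPKM in hESC, whereas KRT5 and KRT1 were near or at 0 in both. KRT14, KRT16 and KRT17 share near-identical sequence and their levels are uncertain.

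Pluripotency genes fell in 20 of 27 cases and rose in none, also at an unadjusted p-value in the authors' deposited table. The median change was -3.20. NANOG was listed too but left out of these counts, by a rule given with the processing. SOX2 fell to 1.97 FPKM in MESO, against 231 FPKM in hESC, and POU5F1, which has near-identical copies, to 19.9 FPKM in MESO, against 217 FPKM in hESC. DNMT3B, the de novo DNA methyltransferase, fell to 89.3 FPKM in MESO, against 893 FPKM in hESC. Loss was uneven. LIN28A, which blocks let-7 maturation, fell to 125 FPKM in MESO, against 413 FPKM in hESC, while its relative LIN28B was at 38.8 FPKM in MESO and 33.9 FPKM in hESC, and ZFP42, a zinc-finger gene of pluripotent cells and placenta, at 87.1 FPKM in MESO and 91.5 FPKM in hESC. MYC and MYCN did not pass, at 25.7 and 17.6 FPKM in MESO and at 34.4 and 41.4 FPKM in hESC. A large fall was also seen outside the list: HES3, a basic helix-loop-helix repressor, was listed at 0 in MESO and at 38.5 FPKM in hESC.

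BMP targets and feedback genes rose in 21 of 29 cases and fell in 1, 11 of the 29 reaching the minimum in MESO alone. Several of them, MSX2, ID2 and BAMBI included, are already counted in the identity lists above. NOG, the secreted BMP inhibitor noggin, was at 67.9 FPKM in MESO and 0.184 FPKM in hESC, and ID2, a direct target, at 254 FPKM in MESO and 16.2 FPKM in hESC. DLX3, a homeobox factor of ectoderm and placenta, was at 16.5 FPKM in MESO and 0.162 FPKM in hESC, and its relative DLX5 at 17.8 FPKM in MESO and 0.104 FPKM in hESC without passing.

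WNT targets moved in both directions, 10 of 21 rising and 3 falling. LEF1, the nuclear partner of beta-catenin, was at 24.8 FPKM in MESO and 0.315 FPKM in hESC, and NOTUM, a secreted WNT inhibitor, at 27.4 FPKM in MESO and 2.39 FPKM in hESC. AXIN2, a widely used feedback target, was at 17.4 FPKM in both cell types. SFRP2, a secreted WNT antagonist, fell to 18.4 FPKM in MESO, against 97.8 FPKM in hESC. Among WNT ligands 5 of 10 rose, but 7 of the 10 reached the minimum in MESO alone and could only be higher. Those that rose included WNT5A and WNT5B, ligands of the beta-catenin-independent branch, which were at 51.0 and 31.1 FPKM in MESO and at 0.760 and 1.87 FPKM in hESC. WLS, which carries WNT proteins to the cell surface, was at 270 FPKM in MESO and 2.40 FPKM in hESC. The Frizzled receptors split, 4 of 9 rising and 3 falling: FZD1, FZD2 and FZD6 rose to 7.04, 15.3 and 13.4 FPKM in MESO, against 0.840, 2.93 and 4.46 FPKM in hESC, and FZD5 and FZD7 fell to 7.03 and 25.8 FPKM in MESO, against 29.6 and 104 FPKM in hESC.

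NODAL, FGF and NOTCH genes split. In the NODAL and activin list 7 of 20 rose and 5 fell: TDGF1, the NODAL co-receptor, fell to 2.55 FPKM in MESO, against 253 FPKM in hESC, and TGFBI, a matrix protein induced by TGF-beta, rose to 88.4 FPKM in MESO, against 1.80 FPKM in hESC. In the FGF list 4 of 25 rose (16%), 3 fell (12%) and 18 did not pass, beside the 9.7% and 5.65% of all genes. The ERK phosphatases DUSP5 and DUSP6 were at 34.0 and 55.0 FPKM in MESO and at 4.48 and 1.73 FPKM in hESC, whereas FGF2 and its receptor FGFR1 fell to 6.79 and 46.8 FPKM in MESO, against 70.6 and 124 FPKM in hESC. In the NOTCH list 3 of 18 rose and 6 fell, with HEY1, a BMP and NOTCH target, at 33.7 FPKM in MESO and 0.626 FPKM in hESC and NRARP and LFNG at 3.03 and 2.58 FPKM in MESO and at 21.8 and 11.2 FPKM in hESC. Interferon and antigen-presentation genes fell in 6 of 21 cases and rose in 1, with IFITM1, an antiviral membrane protein abundant in pluripotent cells, at 70.5 FPKM in MESO and 581 FPKM in hESC and the peptide transporters TAP1 and TAP2 at 0.574 and 1.42 FPKM in MESO and at 4.81 and 6.44 FPKM in hESC.

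Some metabolic and chromatin genes changed as well. Metallothioneins, which bind zinc and copper, fell in 5 of 8 cases and rose in none, also at an unadjusted p-value in the authors' deposited table; MT2A fell to 5.86 FPKM in MESO, against 59.7 FPKM in hESC, and the summed level of the 8 was 14.5 FPKM in MESO and 391.7 FPKM in hESC. The MT1 genes are near-identical, so the level of any single member is uncertain. Polycomb and histone-modifier genes fell in 3 of 24 cases and rose in none, 2 being higher at an unadjusted p-value under 0.05 in the authors' deposited table: PHC1 and JARID2 were at 24.4 and 23.1 FPKM in MESO and at 141 and 101 FPKM in hESC. TET2, which oxidises methylcytosine, was at 6.86 FPKM in MESO and 0.359 FPKM in hESC. CRABP1, a retinoic acid-binding protein, fell to 3.87 FPKM in MESO, against 101 FPKM in hESC. CYP11A1, which starts steroid synthesis, was at 18.6 FPKM in MESO and 1.24 FPKM in hESC. ALDH1A2, an enzyme of retinoic acid synthesis, was at 8.36 FPKM in MESO and 0.188 FPKM in hESC. SLC40A1, the iron exporter ferroportin, was at 65.1 FPKM in MESO and 0.363 FPKM in hESC, and the arginine transporter SLC7A3 fell to 10.8 FPKM in MESO, against 138 FPKM in hESC. Their family did not stand out: of 195 solute carrier genes 20 rose (10.3%) and 14 fell (7.18%), near the 9.7% and 5.65% of all genes. Hypoxia-related genes rose in 9 of 19 cases and fell in none, also at an unadjusted p-value in the authors' deposited table, with NDRG1 at 43.5 FPKM in MESO and 2.52 FPKM in hESC; VEGFA, a classical target of hypoxia, was at 32.0 FPKM in MESO and 13.7 FPKM in hESC without passing.

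Of 23 genes of CDKs, cyclins and CDK inhibitors 5 rose and none fell, also at an unadjusted p-value in the authors' deposited table. CDKN1A, CDKN1C and CDKN2B, which encode CDK inhibitors, were at 103, 185 and 4.05 FPKM in MESO and at 33.5, 43.7 and 0.115 FPKM in hESC. Of 31 DNA replication genes 1 rose and none fell, 3 being lower at an unadjusted p-value under 0.05 in the authors' deposited table. Of 27 mitotic genes none rose and BUB1, a spindle checkpoint kinase, fell to 40.8 FPKM in MESO, against 85.8 FPKM in hESC; TOP2A was at 119 FPKM in both.

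Genes of housekeeping complexes did not pass. None of 80 cytosolic ribosomal protein genes, 68 mitochondrial ribosomal protein genes, 73 respiratory chain genes, 36 proteasome genes or 25 citric acid cycle genes rose or fell. At an unadjusted p-value under 0.05 in the authors' deposited table the lower counts were 0, 1, 3, 1 and 0 in that order, with none higher. The median change of the ribosomal protein genes was -0.16, and 79 of the 80 lay within 0.5 of no change. Of 416 zinc-finger genes with ZNF symbols 12 rose and 6 fell, which is 2.88% and 1.44% against the 9.7% and 5.65% of all genes, with a median change of -0.01.

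**Figure D3:**
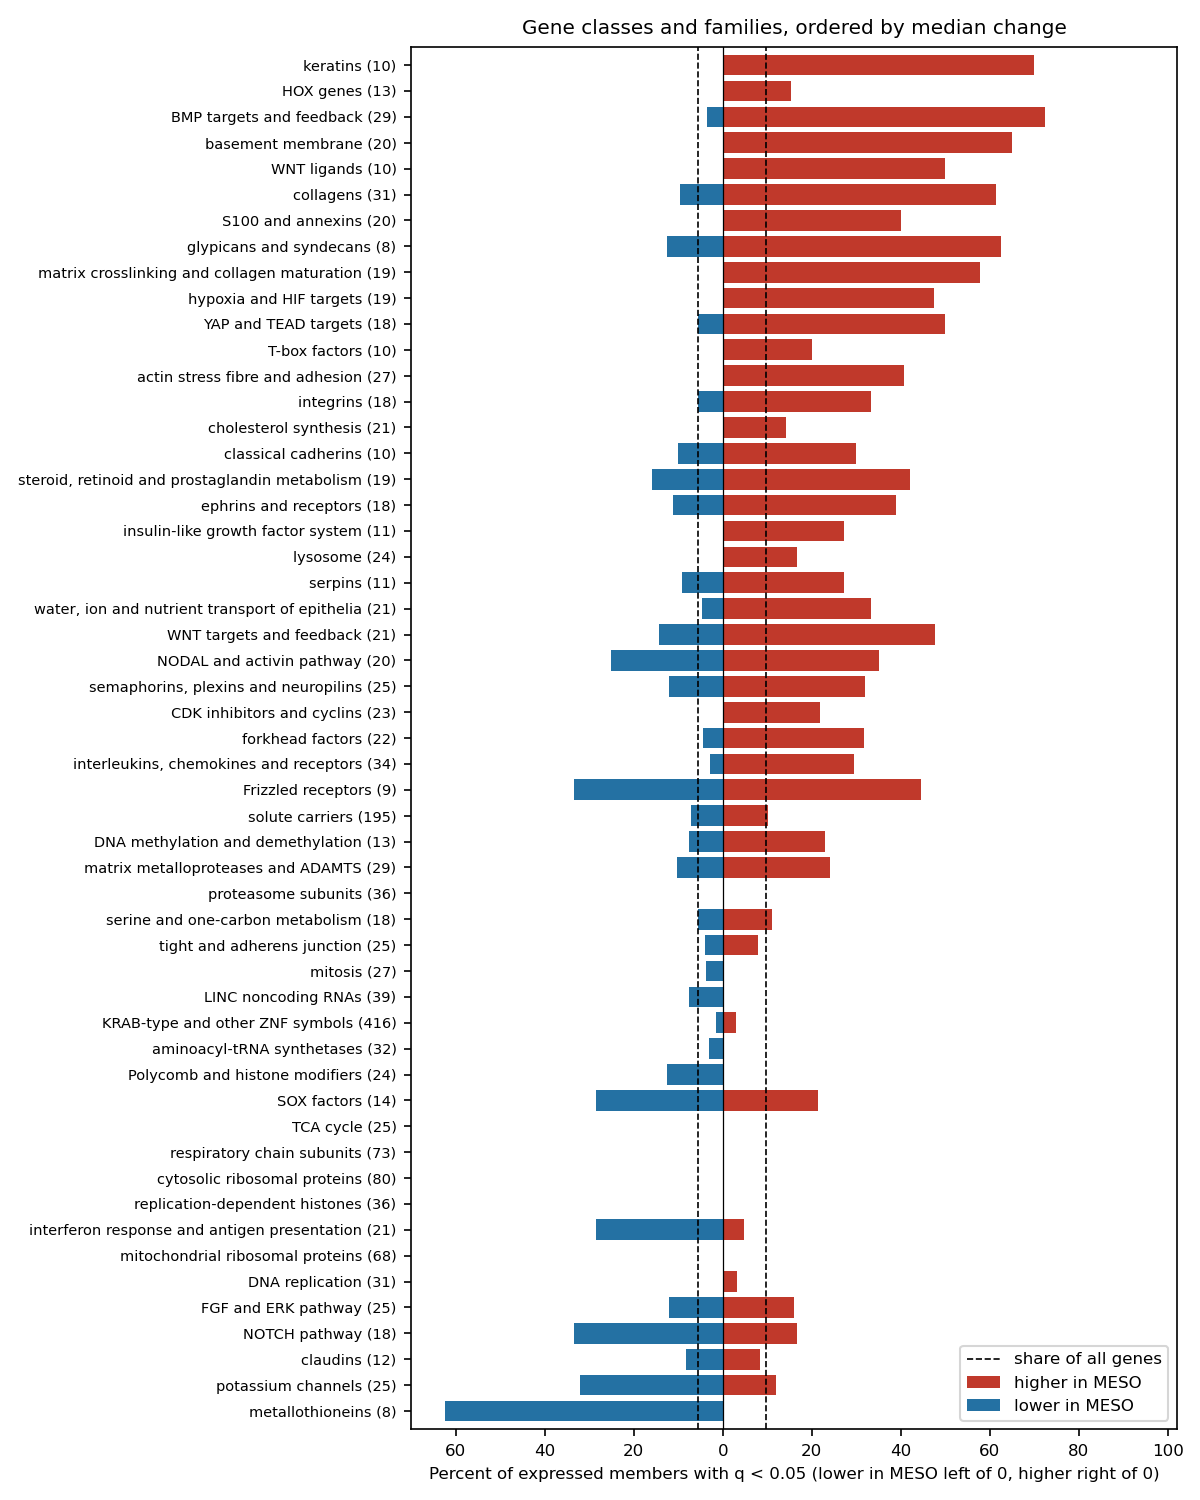
Percent of the genes of each class or family (number at 1 FPKM or more in parentheses) that rose in MESO, drawn right of 0, or fell, drawn left of 0, ordered by median change. Dashed lines mark the shares among all single-symbol genes, 9.7% and 5.65%; keratins, BMP targets and matrix classes lie far beyond the first line and metallothioneins beyond the second, while ribosomal, respiratory and proteasome genes have no bar.

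The other derivatives were set beside MESO from their own tables, which share the hESC libraries and may not share a scale, so no test was made across them. DE (definitive endoderm) was grown for 4 days with FGF and with activin A at 100 ng/mL, lacked IGF-I, heregulin and BMP-4, and received 25 ng/mL of Wnt-3a on its first day alone. NPC (neural progenitors) and NCSC (pre-neural crest) were grown for 6 days at 90000 cells per square centimetre with IGF-I and heregulin and without activin A, BMP-4 or Wnt-3a. NPC had no FGF and received the inhibitors SB431542 and LDN, and NCSC had FGF and received SB431542 and BIO. In DE, NPC and NCSC, the amnion list had 0 of 18, 0 of 17 and 0 of 17 genes higher, and 0, 11 and 9 lower. The backgrounds in those tables were 0.432%, 12.3% and 10.5% higher and 0.00772%, 26.2% and 20.9% lower, so the DE table called very few genes of any kind. The splanchnic list had 0 of 13, 6 of 13 and 4 of 12 genes higher, and 0, 2 and 2 lower. Mesenchymal genes were higher in 4 of 18, 9 of 21 and 14 of 22 cases, and lower in 0, 6 and 3. Genes of both mesoderm and amnion were higher in 3 of 15, 8 of 14 and 5 of 13 cases, and lower in 0, 4 and 5. Rises in the splanchnic list, the mesenchymal list and the list of both mesoderm and amnion were thus not confined to MESO. The trophoblast list had 0 of 8, 2 of 9 and 2 of 9 genes higher, and 0, 5 and 3 lower. PEG10 of that list was at 219 FPKM in DE, 77.4 FPKM in NPC and 84.7 FPKM in NCSC, beside 137 FPKM in MESO. GABRP was at 0.509 FPKM in DE, 0.0116 FPKM in NPC and 0.0118 FPKM in NCSC, beside 230 FPKM in MESO. Some mesoderm factors were also high in DE, where GATA4 was at 56.1 FPKM and GATA6 at 104 FPKM. NR2F2 was listed at 13.002 FPKM in MESO and 37.1 FPKM in NPC.

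**Figure D4:**
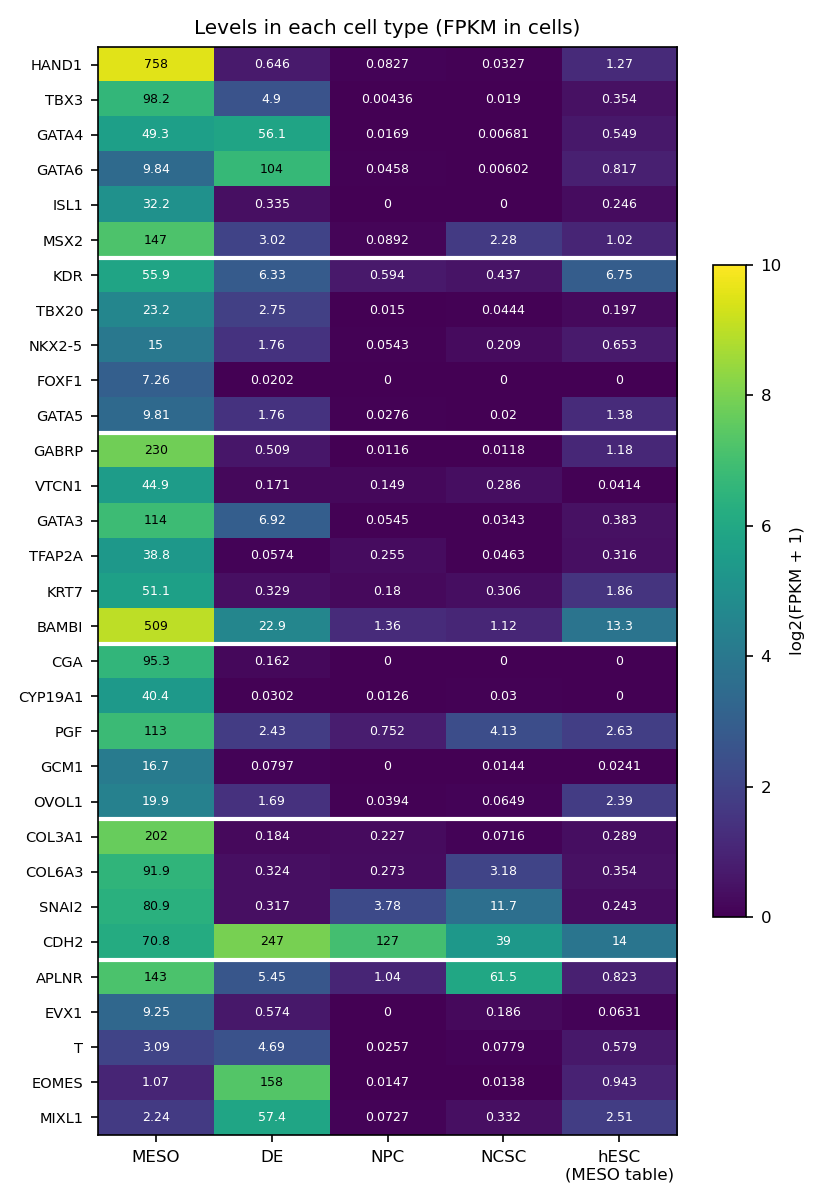
FPKM of named genes in MESO, DE, NPC, NCSC and hESC (the hESC column of the MESO table), coloured by log2(FPKM + 1) and printed in each cell, grouped from top to bottom as genes of both mesoderm and amnion, splanchnic mesoderm, amnion, trophoblast, mesenchyme and early streak. The listed levels of the amnion and trophoblast rows are highest in MESO, that of GATA6 is 104 in DE against 9.84 in MESO, and EOMES is 158 in DE against 1.07 in MESO.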

How the data were processed

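Per the labels, poly-A RNA of 4 libraries, 2 of MESO and 2 of hESC, enters the comparison. Cufflinks 2.2.1, TopHat2 2.0.13, featureCounts, Subread 1.5.2 and build hg19 appear in the submitters' processing notes. The scaling of the FPKM was not given in the sources used here, nor was the role of each tool. The deposited table gives 1 FPKM value per cell type, which the authors made by combining the replicates, and, per the file headers, a test statistic (a signed score), a p-value and a q-value of the authors. Its column hESS was read as hESC. No column of per-sample values was left unmapped (0).

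Rows outside chromosomes 1 to 22 and X (1314) were dropped, and the row of highest mean FPKM was kept for each symbol. Over the 4 deposited tables, 18 symbols were set apart, and left out of all counts, where the FPKM ratio and the score had opposite signs, where a cell held more than 6 significant digits, or where, at a mean of at least 20 FPKM, the log2 ratio over the score was under 0.4 of the median; in the MESO table these were LDHA, PKM, SLC2A1, TKT and UGP2, by rules made after seeing the data. NANOG, of the pluripotency list, was set apart for a cell with more than 6 significant digits in the DE table. It was therefore left out of the MESO counts too. Changes are log2(FPKM + 1), MESO minus hESC, and a call is the authors' q-value below 0.05. A limma fit over libraries had been planned; with 1 value per cell type it could not be made, the differences have no replicate check, and the authors' deposited q-value took its place. The steps were tested on simulated data.

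The members and the 35 gene lists and 33 families were chosen with earlier results of these data known. Of 838 listed symbols 804 were found; merged loci stayed out of lists. The 12 identity lists share no gene. The further lists and families reuse some identity-list genes, such as TDGF1 and COL3A1, so their counts are not independent. Named genes are the 15 largest rises and 15 largest falls, identity-list members, up to 6 changed and 4 other members of each further list, and HAND1, TBX3, GATA4, COL3A1, POU5F1, SOX2, MYC and MYCN; not all are printed, and some are not reported here. Promoter bases are from RefSeq (GRCh38.p14). Python 3.11.15, pandas 2.3.3, numpy 2.4.6 and matplotlib 3.10.9 were used. Alternatives were pseudocounts of 0.1 and 5, minimum levels, a stricter q-value, a minimum change, quantile normalization, hESC values of the other tables and merged loci kept; those chosen after seeing the data are named as such.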

Additional observations from a re-analysis of the deposited data

How the results depend on the processing

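The number of amnion genes higher in MESO was 13 to 17 over every alternative run, against 17, and that of splanchnic and lateral plate mesoderm genes 12 to 18, against 16, except that with at least 1 FPKM required in hESC, chosen after seeing the data, 3 splanchnic genes rose. The number of loci lower in MESO was 477 with a minimum of 5 FPKM and 430 with the authors' q-value below 0.01, against 742. With normal p-values from the score, also chosen after seeing the data, the loci higher in MESO numbered 750 and the loci lower in MESO 379. Genes called by both measures numbered 11 of 16 in the splanchnic list and 15 of 17 in the amnion list. Of the other splanchnic genes 2 have no score and so could not be called by it, against 0 in the amnion list. By p-values from the score, whatever the q-value, 16 splanchnic and 17 amnion genes were called. Genes called by both measures numbered 7 of 13 in the trophoblast list and 4 of 8 in the contractile list. Of the other trophoblast genes 4, CGA and CYP19A1 among them, have no score. Of the named identity genes COL3A1, NR2F2, TPM1, TNNI3, MYL7, FLI1, PRDM1 and JUP no longer passed. SNAR-C4, SNAR-B1, SNAR-C3 and DPPA5 did not pass at q below 0.01. The median log2 change of expressed genes, 0.07, was 0.0818 and 0.0507 with pseudocounts of 0.1 and 5, 0 with no minimum, 0.10 with 5 FPKM, -0.0816 after quantile normalization, -0.0485 with hESC values of the other 3 tables and 0.0221 with 1 FPKM in hESC. Keeping the loci set apart gave 1287 higher and 745 lower. None of these alternatives turned a called change round. No paired analysis was possible because each cell type has a single combined value, and for the same reason no replicate could be left out. Read depth is unknown, so the precision of low levels cannot be given.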

Other observations

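Some guidance and cytokine genes changed as well. The semaphorin co-receptors NRP1 and NRP2 rose to 52.0 and 59.9 FPKM in MESO, against 2.73 and 3.64 FPKM in hESC, and the semaphorin SEMA6B fell to 1.31 FPKM in MESO, against 24.0 FPKM in hESC. Of 25 genes of this family 8 rose and 3 fell. Among ephrins and their receptors 7 of 18 rose and 2 fell, with the ligand EFNB2 at 48.4 FPKM in MESO and 4.42 FPKM in hESC. Of 34 interleukin, chemokine and receptor genes 10 rose and 1 fell, with 13 higher and 8 lower at an unadjusted p-value under 0.05 in the authors' deposited table, and 10 of the 34 reached the minimum in MESO alone. CXCR7, a scavenging receptor for CXCL12, rose to 64.5 FPKM in MESO, against 0.853 FPKM in hESC, and CCR7, a chemokine receptor, to 23.2 FPKM in MESO, against 0.0803 FPKM in hESC. IL6ST, the shared receptor subunit of the interleukin-6 family, rose to 26.2 FPKM in MESO, against 2.13 FPKM in hESC. In the metalloprotease family 7 of 29 rose and 3 fell, with ADAMTS9 at 32.8 FPKM in MESO and 0.318 FPKM in hESC and the inhibitor TIMP3 at 36.7 FPKM in MESO and 0.770 FPKM in hESC.

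Potassium channel genes gave more falls than rises, 8 and 3 of 25. KCNS3, a modifier subunit, fell to 1.29 FPKM in MESO, against 10.9 FPKM in hESC, and KCNJ2, an inward rectifier, rose to 4.78 FPKM in MESO, against 0.216 FPKM in hESC. KCNQ1 was listed at 0 in MESO and at 224 FPKM in hESC without passing. Chromosomes 18 and 19 lay at the ends of the range of shares that rose, 18.1% of 193 genes and 3.17% of 978, against 9.7% of all single-symbol genes; on chromosome 19, 8.18% fell.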
